A study of Mus musculus with 15 samples.

Results

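The expression of 9 interferon-stimulated genes was examined in femoral tissue of mice after spaceflight and bone surgery: Ifit1, Ifit2, Ifit3, Isg15, Irf7, Oasl2, Rsad2, Usp18 and Ifi44. They were found on the arrays by the accession of each probe, which gave 10 of the 55681 probes (9 of the 21150 genes with a matched symbol), with 1 probe per gene except Isg15, which had 2. Interferons are secreted when cells sense foreign or misplaced nucleic acid, and they act through surface receptors, kinases and transcription factors to switch on a shared set of genes. Products of these genes block viral replication, tag other proteins, feed the response forward or restrain it. In bone, interferons are also known for holding back osteoclast formation.

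Each array held RNA of 1 male C57BL/6J mouse, labelled as 9 weeks old, and there were 15 arrays in 4 groups. The G-Surgery group (n = 4) and the FLT-Surgery group (n = 3) had a segmental bone defect made in the femur, bridged by a scaffold with a saline-loaded collagen sponge and no growth factor, and the callus region was sampled. The G-Sham (n = 4) and FLT-Sham (n = 4) mice were unoperated, so that "sham" stands here for no surgery, and the equivalent stretch of femur was taken. FLT mice were flown to the International Space Station for about a month, and G mice were housed in matched habitats on the ground. On every array the sample was labelled with Cy5 and a Universal Mouse Reference RNA, made from 11 cell lines, with Cy3, with no dye swap. The measurement is therefore the log2 ratio of sample to reference at each probe, where 0 stands for equal signal and a negative value for more signal in the reference.

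A sequence that interferon-activated factors bind, the interferon-stimulated response element, lies close to the start of many genes of this family. Its core, GAAANNGAAA, was searched on both strands (as TTTCNNTTTC on the other) in the RefSeq promoter windows of GRCm38.p6, which run from 250 bases before to 50 bases after the start of a gene. Of the 9 genes 8 had a window and Usp18 had none in the table. The core was found for 4 of the 8 genes, compared with 1079 of all 27025 genes with a window. By window it was found in 3.44% of all 32851. These 4 windows are shown because they let the core be seen beside the genes whose signals are described next, and the capitals mark the core.

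Isg15 (chr4:156200769-156201068, minus strand): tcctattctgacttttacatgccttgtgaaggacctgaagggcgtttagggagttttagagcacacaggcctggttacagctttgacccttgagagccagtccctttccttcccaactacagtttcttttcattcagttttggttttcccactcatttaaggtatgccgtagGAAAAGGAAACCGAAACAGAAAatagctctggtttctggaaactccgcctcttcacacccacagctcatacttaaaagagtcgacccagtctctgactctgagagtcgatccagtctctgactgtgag
Rsad2 (chr12:26456403-26456702, minus strand): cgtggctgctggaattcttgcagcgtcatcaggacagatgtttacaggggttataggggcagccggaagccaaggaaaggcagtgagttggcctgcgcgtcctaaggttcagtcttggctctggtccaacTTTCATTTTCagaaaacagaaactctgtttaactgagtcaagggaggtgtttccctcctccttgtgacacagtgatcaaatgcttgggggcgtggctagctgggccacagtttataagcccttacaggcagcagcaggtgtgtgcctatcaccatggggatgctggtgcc
Ifit3 (chr19:34583279-34583578, plus strand): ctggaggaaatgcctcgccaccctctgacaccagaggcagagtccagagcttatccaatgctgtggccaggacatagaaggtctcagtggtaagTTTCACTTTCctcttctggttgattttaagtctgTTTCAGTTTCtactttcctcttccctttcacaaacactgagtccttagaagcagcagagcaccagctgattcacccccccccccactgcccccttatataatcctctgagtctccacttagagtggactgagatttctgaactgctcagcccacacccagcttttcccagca
Ifit1 (chr19:34640639-34640938, plus strand): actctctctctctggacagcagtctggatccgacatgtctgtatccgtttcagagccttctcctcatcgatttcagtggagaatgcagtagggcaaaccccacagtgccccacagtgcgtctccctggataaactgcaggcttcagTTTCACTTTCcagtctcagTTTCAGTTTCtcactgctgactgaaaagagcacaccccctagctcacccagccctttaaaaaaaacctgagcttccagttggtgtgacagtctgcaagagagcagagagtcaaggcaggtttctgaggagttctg

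In Isg15 there were 3 overlapping matches, which began 78, 72 and 66 bases before the start site. Rsad2 had 1 match, 120 bases before it, Ifit3 had matches at 156 and 122 bases and Ifit1 at 104 and 85 bases. The windows of Irf7, Oasl2, Ifi44 and Ifit2 (chromosomes 7, 5, 3 and 19) held none of these letters. A match is a description of the sequence and not a measured site.

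The members differed in how often they were measured. Of the 150 values (10 probes on 15 arrays) 69 were flagged by the scanner software as well above background in Cy5, which is 46% compared with 29.5% over all probes. "Above background" stands for this flag from here on, and a spot without it may still read somewhat more than its surroundings. All 10 probes were above background in Cy3 on all 15 arrays, so that each gene was measured in the reference. Isg15 at its brighter probe and Usp18 were above background in Cy5 on 15 of 15 arrays, Ifit3 and Oasl2 on 12, Irf7 on 9, Rsad2 on 4 and Ifit1 on 1. Ifit2 and Ifi44 were above background on 0 arrays.

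**Figure D1:**
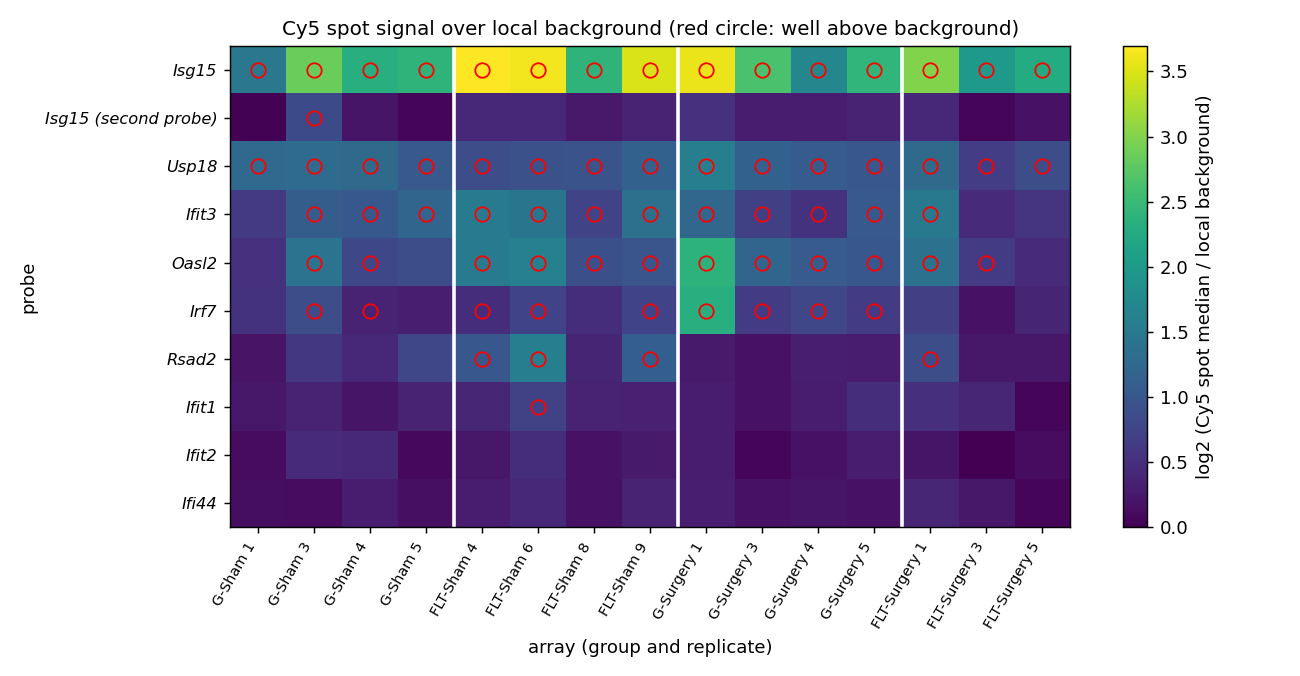
Cy5 spot signal of the 10 probes (rows) on the 15 arrays (columns, by group and replicate), coloured by the log2 of the spot's median signal over its local background, with a red circle where the probe was well above background. Isg15 at its brighter probe and Usp18 carry 15 circles each, Rsad2 carries 4, and Ifit2 and Ifi44 carry 0.

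Total signal also varied among the arrays. The number of probes above background in Cy5 averaged 3699.25 more in FLT-Sham than in G-Sham (two-sided exact permutation test, p = 0.114), and the FLT-Surgery mean minus the G-Surgery mean was -3218.25 (two-sided exact permutation test, p = 0.0571). The software had multiplied Cy5 by 19.8 to 59.5 to bring it to the scale of Cy3, with the largest factors on FLT-Surgery replicates 3 and 5 (59.5 and 50.9). FLT-Sham replicate 8 stood apart from its group with 14813 probes above background, against 19424 to 21461 on the other 3 arrays. Osteocyte and osteoblast genes were checked against the tissue label. Of 10 such markers 6 were above background on at least 3 arrays, whereas Dmp1, Phex, Sost and Sp7 were so on 0 arrays. The 10 skeletal muscle markers were all measured. Their summed Cy5 signal, in units of 1000, was 837 on FLT-Sham replicate 8 and 4509 to 7696 on the other FLT-Sham arrays, 534 to 2665 in G-Sham, 434 to 1986 in G-Surgery, 1688 on FLT-Surgery replicate 1, and 126 and 171 on replicates 3 and 5. In RNA of a whole tissue, fewer cells of a type and less RNA per cell cannot be told apart.

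Isg15, a ubiquitin-like protein that is attached to other proteins and also secreted, was the member with the smallest spread between arrays. In G-Sham its log2 ratio at the brighter probe was -0.14, 0.09, -0.55 and -0.25 (mean -0.21 ± 0.27, SD, n = 4). In FLT-Sham it was 0.07, -0.14, 0.77 and 0.52 (mean 0.30 ± 0.41, SD, n = 4). The ranges of these groups overlapped. In G-Surgery it was 0.96, 0.11, 0.28 and 0.43 (mean 0.45 ± 0.37, SD, n = 4), and in FLT-Surgery 0.74, 0.37 and 0.68 (mean 0.60 ± 0.20, SD, n = 3). Its Cy5 spots read 70 to 287 before any correction, over a local background of 21 to 28. The dye-normalized Cy5 signal was 3315 to 5346 in G-Sham and 7690 to 11037 in FLT-Sham, and the Cy3 signal of the reference at the same spots was 3936 to 7179 and 5330 to 8485. With Cy5 alone, scaled to the 75th percentile of each array, the log2 difference between these groups was 0.50 (adjusted p = 0.477 from limma), and the scaled values overlapped. The order of the mean log2 ratios was FLT-Surgery, G-Surgery, FLT-Sham and G-Sham. Neighbouring groups in this order overlapped, and the G-Surgery arrays lay above all G-Sham arrays, at the closest 0.11 against 0.09. By mean dye-normalized Cy5 signal the order was another: FLT-Sham (8961), FLT-Surgery (8906), G-Surgery (7363) and G-Sham (4559). At its second probe Isg15 was above background on G-Sham replicate 3 alone, with log2 ratios from -4.42 to -0.87 over the 15 arrays, so that the 2 probes of this gene did not agree.

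Usp18 encodes the protease that removes Isg15 from proteins and that dampens signalling at the type I interferon receptor. Its log2 ratio was -0.68, -0.64, -1.03 and -1.57 in G-Sham (mean -0.98 ± 0.43, SD, n = 4), and 0.02, -0.35, -0.21 and -0.94 in G-Surgery (mean -0.37 ± 0.41, SD, n = 4). In FLT-Sham it was -2.21, -2.70, -0.54 and -1.63 (mean -1.77 ± 0.93, SD, n = 4), where replicate 8 was the high value. In FLT-Surgery it was -0.81, -0.56 and -0.85 (mean -0.74 ± 0.16, SD, n = 3). The order of the means was G-Surgery, FLT-Surgery, G-Sham and FLT-Sham, and each neighbour overlapped the next. The 3 lowest values among the 15 arrays were those of FLT-Sham replicates 4, 6 and 9, the arrays with the highest signal of muscle markers.

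Rsad2 encodes viperin, a radical SAM enzyme that makes a chain-terminating nucleotide. Its signal stood above background on flown arrays alone. Its log2 ratio in FLT-Sham was 0.18, 0.57 and 0.41 on replicates 4, 6 and 9, which were above background, and -3.49 on replicate 8, which was not. In FLT-Surgery it was -0.55 on replicate 1, above background, and -3.43 and -4.52 on replicates 3 and 5, which were not. It was not above background on the 8 ground arrays, at -3.14, -2.19, -3.95 and -1.21 in G-Sham and -4.67, -4.04, -3.75 and -4.16 in G-Surgery. Where it was above background its spots read 44 to 69, over a local background of at most 28. The spot of G-Sham replicate 5, which was not above background, also read 44, over a local background of 25.5. The group means, from -0.58 ± 1.94 in FLT-Sham (SD, n = 4) through -2.62 ± 1.19 in G-Sham (SD, n = 4) and -2.83 ± 2.05 in FLT-Surgery (SD, n = 3) to -4.16 ± 0.38 in G-Surgery (SD, n = 4), are dominated by values at background and carry no order there. The FLT-Sham arrays with Rsad2 signal had the highest summed muscle signal of all arrays, and FLT-Surgery replicate 1 had the highest of its group. G-Sham replicates 4 and 5 had muscle sums of 2590 and 2665, larger than the 1688 of FLT-Surgery replicate 1, with no Rsad2 signal above background. The part of muscle RNA in the Rsad2 values was not tested.

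**Figure D2:**
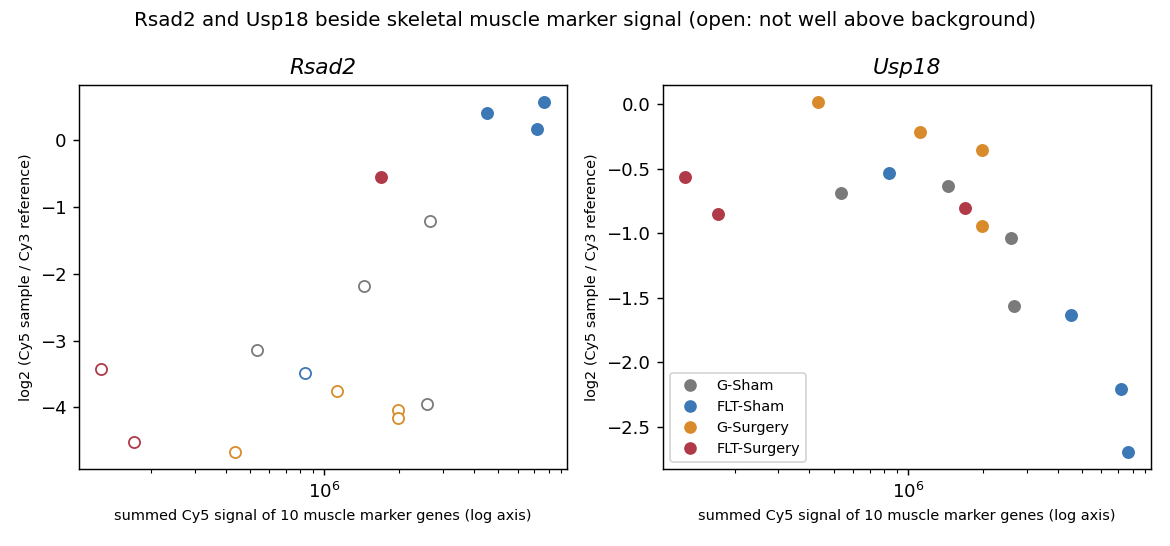
Log2 ratio of Rsad2 (left) and Usp18 (right) on each of the 15 arrays against the summed Cy5 signal of 10 skeletal muscle marker genes on a log axis, with colours for the groups and open points where the gene was not well above background. FLT-Sham replicates 4, 6 and 9 lie at the far right, with the 3 highest Rsad2 values (0.18 to 0.57) and the 3 lowest Usp18 values (-2.70 to -1.63).

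Irf7 is the transcription factor that drives production of interferon alpha and is itself induced by interferon. In G-Surgery it was above background on 4 of 4 arrays, with log2 ratios of 3.05, 0.09, 0.96 and -0.94 (mean 0.79 ± 1.70, SD, n = 4). Replicate 1 was the highest Irf7 value of all arrays. In FLT-Surgery it was above background on 0 of 3 arrays, at -0.97, -3.07 and -1.36 (mean -1.80 ± 1.12, SD, n = 3). All 3 lay below the G-Surgery range, the highest at -0.97 against -0.94 in G-Surgery replicate 5. In FLT-Sham 3 of 4 arrays were above background, at -1.14, -0.99 and -0.53, with -1.52 on replicate 8 (mean -1.04 ± 0.41, SD, n = 4). In G-Sham the values were -1.71, -0.23, 1.15 and -3.33 (mean -1.03 ± 1.93, SD, n = 4), with replicates 3 and 4 above background, and the spot of replicate 4 had a local background of 48.5. Elsewhere the local background of a member was at most 34. As the FLT-Surgery values and 2 of the G-Sham values were not above background, the means of those groups carry no order against the others.

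Oasl2, an oligoadenylate synthetase-like protein with ubiquitin-like domains, had log2 ratios of 1.36, 0.38, 0.36 and -0.66 in G-Surgery (mean 0.36 ± 0.82, SD, n = 4). In G-Sham they were -2.36, -0.10, -2.57 and -1.40 (mean -1.61 ± 1.13, SD, n = 4), with replicates 3 and 4 above background. Replicate 3 was the high value of that group, and it alone lay inside the G-Surgery range. FLT-Sham was the tightest group, at -0.27, -0.57, -0.67 and -0.76 (mean -0.57 ± 0.21, SD, n = 4). FLT-Surgery spread from 0.69 on replicate 1 through -0.21 on replicate 3 to -2.59 on replicate 5 (mean -0.70 ± 1.70, SD, n = 3), the last not above background. G-Surgery had a higher mean than FLT-Sham, the other group measured on all its arrays, and the ranges of these groups overlapped.

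The Ifit genes lie side by side on chromosome 19 and encode proteins that bind viral RNA. Ifit3 was 0.74, 0.08, -0.49 and 0.42 in FLT-Sham (mean 0.19 ± 0.53, SD, n = 4), where replicate 8 was the lowest. It was 0.18, -0.30, -0.12 and -0.24 in G-Surgery (mean -0.12 ± 0.21, SD, n = 4), and -1.81, -0.06, -0.47 and 0.51 in G-Sham (mean -0.46 ± 0.99, SD, n = 4), the first not above background. In FLT-Surgery it was 1.27 on replicate 1, the highest of all arrays, and -1.51 and -1.39 on replicates 3 and 5, which were not above background (mean -0.54 ± 1.57, SD, n = 3). Ranges of all 4 groups overlapped. Ifit3b, the near copy of Ifit3, has its own probe, above background on 0 arrays, and whether the Ifit3 probe also binds its RNA was not analysed here. Ifit1 was above background on FLT-Sham replicate 6 alone, at -1.68, and had log2 ratios from -4.79 to -1.87 on the other arrays. Ifit2 ran from -5.27 to -1.27, and Ifi44, a cytoplasmic protein of the response with a GTP-binding motif, from -5.62 to -3.78. The last 3 genes were not tested in any comparison.

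**Figure D3:**
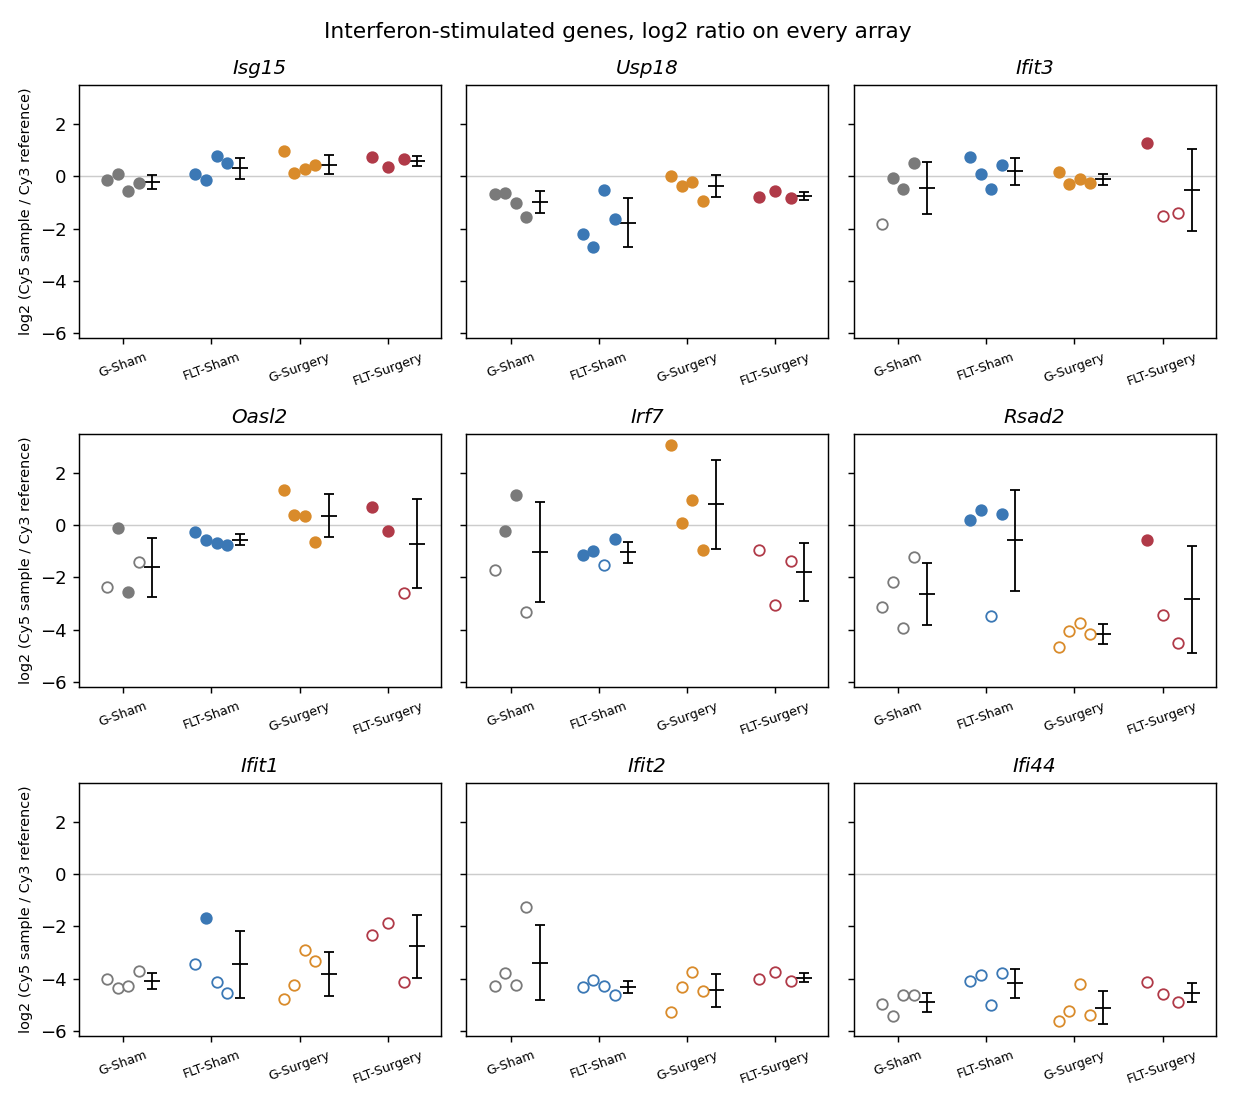
Log2 ratio of Cy5 sample to Cy3 reference for each of the 9 genes at its brightest probe, 1 point per array in 4 groups, filled where the probe was well above background and open where it was not. Bars are the group mean ± SD. Irf7 is open on all 3 FLT-Surgery arrays (-3.07 to -0.97) and filled on all 4 G-Surgery arrays (-0.94 to 3.05).

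In the comparison of FLT-Sham with G-Sham, which asks what spaceflight changed in unoperated bone, 6 members were measured on enough arrays to be tested (above background on at least 3 of those compared). With limma, 0 of the 6 passed the cut-off of the study's methods, a fold of at least 2 with an unadjusted p of at most 0.01, which 2.0% of the 19739 probes tested passed in either direction, and 0 had an unadjusted p of at most 0.05, compared with 9.57% of probes. The groups of arrays overlapped for all 6, compared with 4.60% of probes whose groups did not overlap. The log2 differences were 2.04 for Rsad2 (SE 0.98, adjusted p = 0.522 from limma), 1.04 for Oasl2, 0.64 for Ifit3, 0.52 for Isg15, -0.01 for Irf7 and -0.79 for Usp18, with a median of 0.58 against 0.24 over all probes. Rsad2 was measured in FLT-Sham on 3 of 4 arrays and in G-Sham on 0. It thus entered this fit through FLT-Sham alone, and a lower bound was set from the Cy5 channel. On each G-Sham array the dimmest probe still above background stood for Rsad2, or its own value where that was higher. By this bound, which is open to dye bias, FLT-Sham was at least 2.17-fold higher. With the background corrected by a fitted model (normexp) in place of subtraction, and loess, the log2 difference was 0.30, which lies under this bound. The offset of 50 used in normexp draws the log ratios of dim spots toward 0. With a second loess the Rsad2 difference was 1.34. Without FLT-Sham replicate 8, Rsad2 passed the cut-off at a log2 difference of 3.01 (adjusted p = 0.0486 from limma), as did 2071 of all probes (10.7%). Without G-Sham replicate 3, Oasl2 passed it at 1.54 (adjusted p = 0.443 from limma), as did 407 of all probes (2.12%). The Rsad2 difference was 2.37 among arrays of slide 1 (1 against 1), 1.34 on slide 2 (3 against 2) and 1.64 with the slide as a block, while G-Sham replicate 4 was the array of slide 3.

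In the comparison of FLT-Surgery with G-Surgery, the effect of spaceflight on the callus, 5 members were tested. Irf7 had the log2 difference farthest from 0, at -2.59 (SE 0.95, 95% interval -4.81 to -0.37, unadjusted p = 0.0276 and adjusted p = 0.284 from limma). Its FLT-Surgery spots read 38, 26 and 30 over local backgrounds of 23.5, 23 and 23 and were not above background, and those of G-Surgery replicates 3 and 4, which were, also read 38. Irf7 entered this fit through its G-Surgery arrays alone, and from the Cy5 channel the bound for G-Surgery over FLT-Surgery was at least 3.19-fold. The log2 difference was -0.67 with normexp and loess and -1.57 with a second loess, both smaller than that bound. It was the 1 member of the 5 whose groups did not overlap, a state shared by 13.6% of all probes. By the cut-off, 0 of the 5 passed with limma, compared with 3.14% of all 16548 probes, and Irf7 alone had an unadjusted p of at most 0.05, which 16.4% of all probes had. The other log2 differences were -1.06 for Oasl2, -0.42 for Ifit3, -0.36 for Usp18 and 0.15 for Isg15 (95% interval -0.53 to 0.83). The median of the 5 was -0.42 and that of all probes was -0.20. The Irf7 difference was -3.24 on slide 1 (2 against 3 arrays), -1.06 on slide 2 (1 against 1), -2.60 with the slide as a block, and -1.83 without G-Surgery replicate 1. For Oasl2 the direction differed between slides, at -1.75 on slide 1 and 0.31 on slide 2. Without FLT-Surgery replicate 1, Ifit3 passed the cut-off at -1.33 (adjusted p = 0.0307 from limma), as did 2053 of all probes (12.8%). The FLT-Surgery arrays left in that fit were not above background for Ifit3, so that the size of this difference rests in part on spots without measured signal. Rsad2, above background on that FLT-Surgery array alone, was not tested, and its Cy5 bound was at least 2.25-fold higher in FLT-Surgery from 1 of 3 arrays. The factor that scaled Cy5 was 27.5 on FLT-Surgery replicate 1 and at least 50.9 on the other 2 arrays of this group. In G-Surgery it ran from 24.8 to 47.97. The part of this factor in these differences was not tested.

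Surgery on the ground was examined by comparing G-Surgery with G-Sham. Here the log2 differences of all 5 tested members were above 0, as were those of 59.9% of all probes, and that of Ifit3 turned below 0 with a second loess and with normexp and loess. They were 1.97 for Oasl2 (SE 0.62, 95% interval 0.56 to 3.38, unadjusted p = 0.0117 and adjusted p = 0.354 from limma), 1.82 for Irf7 (SE 1.09), 0.66 for Isg15 (SE 0.28, 95% interval 0.03 to 1.29, unadjusted p = 0.0418 and adjusted p = 0.438 from limma), 0.61 for Usp18 and 0.34 for Ifit3. Oasl2 and Isg15 were the members with an unadjusted p of at most 0.05, which 10.9% of all probes had. By the cut-off, 0 of the 5 passed with limma, compared with 2.59% of all 17675 probes, and the groups did not overlap for 1 of the 5 (Isg15), compared with 6.86% of probes. The median of the 5 was 0.66 and that of all probes was 0.14, and that of all probes was -0.08 when a second loess was applied to each array. Oasl2 missed the cut-off by its p, and its difference was 0.56 with normexp and loess. It passed without G-Sham replicate 3 (2.47), without G-Surgery replicate 5 (2.31) and with Cy5 alone (1.64), at adjusted p values of 0.235, 0.219 and 0.291 from limma. Of all probes 3.14%, 3.92% and 3.31% passed in these fits. The Oasl2 difference was 0.45 on slide 1 (3 against 1 array), 2.26 on slide 2 (1 against 2) and 1.31 with the slide as a block. Irf7 was 1.06 without G-Surgery replicate 1.

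Among flown mice, FLT-Surgery was compared with FLT-Sham and 6 members were tested. The signs were mixed, at 1.03 for Usp18 (SE 0.54, adjusted p = 0.260 from limma), 0.29 for Isg15, -0.14 for Oasl2, -0.73 for Ifit3, -0.76 for Irf7 and -2.25 for Rsad2 (SE 1.26, adjusted p = 0.279 from limma). With limma 0 of 6 passed the cut-off and 0 had an unadjusted p of at most 0.05, compared with 6.65% and 24.3% of all 19136 probes, and the groups overlapped for all 6, compared with 14.7% of probes whose groups did not. Without FLT-Sham replicate 8, Usp18 passed the cut-off at 1.44 (adjusted p = 0.0317 from limma), as did 4911 of all probes (26.2%). Without FLT-Surgery replicate 1, Ifit3 passed it at -1.64 (adjusted p = 0.0756 from limma). For Rsad2 the difference was -4.15 on slide 1 (2 against 1 array) and 0.28 on slide 2 (1 against 3). Each of the 4 comparisons shares a group of arrays with 2 others, so that they are not independent of each other.

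Whether spaceflight acted differently after surgery was tested as an interaction over all 15 arrays, the spaceflight difference in Surgery minus that in Sham. It was -2.57 for Irf7 (SE 1.37, adjusted p = 0.302 from limma), -2.10 for Oasl2 (SE 1.01, 95% interval -4.26 to 0.06, unadjusted p = 0.0554 and adjusted p = 0.264 from limma), -1.07 for Ifit3, -0.72 for Rsad2, -0.37 for Isg15 and 0.42 for Usp18. With limma 0 of 6 passed the cut-off and 0 had an unadjusted p of at most 0.05, compared with 5.33% and 19.5% of all 21777 probes. The median of the 6 was -0.89 and that of all probes was -0.37. The effect of spaceflight is thus not shown to differ between Sham and Surgery for any of the 6, and intervals as wide as these do not show that it is alike.

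**Figure D4:**
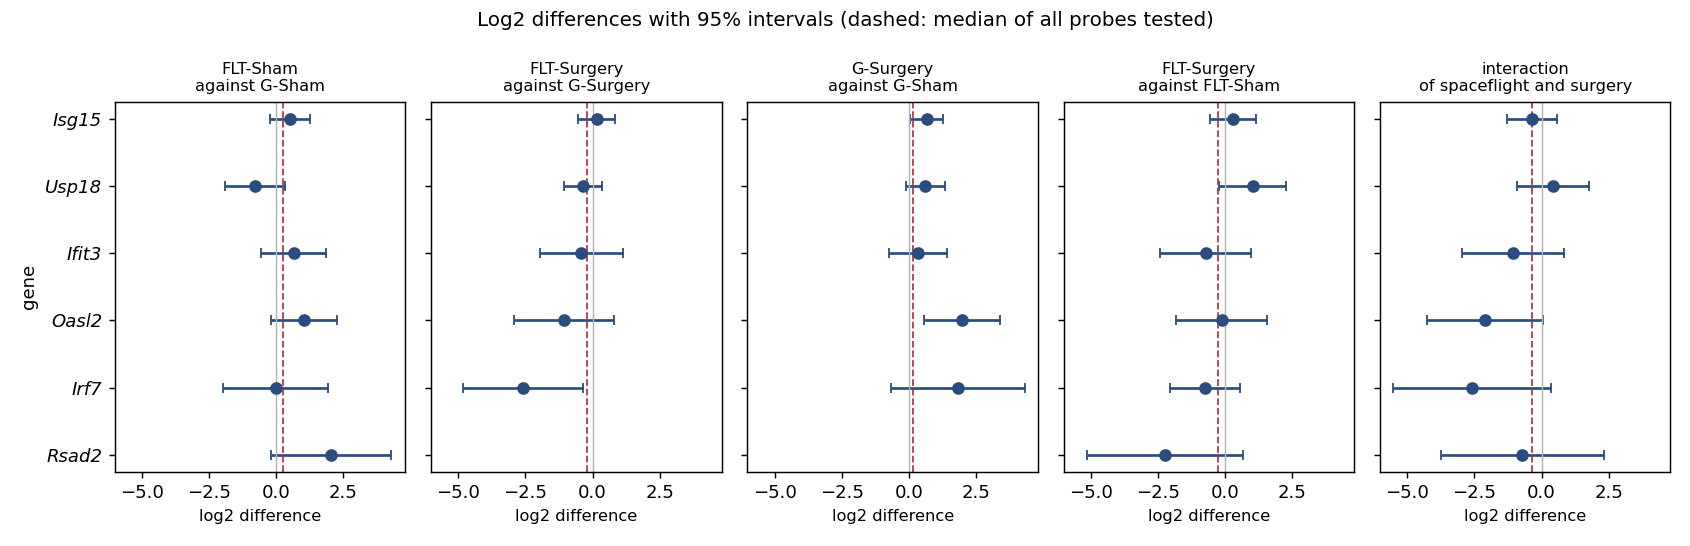
Log2 differences of the 6 tested members at their brightest probe in the 4 comparisons and the interaction, with 95% intervals from limma. The dashed line is the median of all probes tested and the grey line is 0. Intervals that leave out 0 are those of Irf7 in FLT-Surgery against G-Surgery and of Oasl2 and Isg15 in G-Surgery against G-Sham.

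The wider interferon pathway was followed in 6 lists with 115 genes, of which 108 had a probe. At their brightest probes, 41 were above background on all 15 arrays, 51 on some and 16 on 0. The number of tested genes past the cut-off was 2 of 79 in FLT-Sham against G-Sham (2.53%), 1 of 68 in FLT-Surgery against G-Surgery (1.47%), 1 of 72 in G-Surgery against G-Sham (1.39%), 2 of 77 in FLT-Surgery against FLT-Sham (2.60%) and 5 of 81 in the interaction (6.17%). These shares lay near or below those of all probes given above, and 0 genes had an adjusted p of at most 0.05 from limma in any comparison. An unadjusted p of at most 0.05 was found for 8 of 79, 8 of 68, 14 of 72, 6 of 77 and 16 of 81 genes. Of all probes 9.57%, 16.4%, 10.9%, 24.3% and 19.5% had such a p. The share of the lists lay farthest above that of all probes in G-Surgery against G-Sham and farthest below it in FLT-Surgery against FLT-Sham. Each of the calls on single genes that follow was lost with normexp and loess, and each but that of Samhd1 when Cy5 and Cy3 both had to be above background on each array compared. With normexp and loess the calls over all probes went from 394 to 33, 519 to 208, 458 to 180, 1272 to 293 and 1160 to 321. A gene above background in 1 group alone enters a fit through that group, so that its difference is partly set by this filter. Where it left the fit the call counts as lost.

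Among the sensors and adaptors of nucleic acid, 0 of the 8 to 10 genes tested passed the cut-off in any comparison. Of the interferons themselves at most 3 of 8 were tested. The gene past the cut-off was Ifna2, a type I interferon whose family members are near copies of each other, so that its probe may bind RNA of several of them, and it was lower in FLT-Sham than in G-Sham. Its log2 ratio was 1.60, 0.68, 1.92 and 2.30 in G-Sham, with 3 arrays above background, and -1.45, -0.43, 0.86 and -1.56 in FLT-Sham, with 0. This gives at least 3.40-fold higher in G-Sham, with an adjusted p of 0.437 from limma, the call was kept in 3 of the 8 fits with an array left out, and with normexp and loess the log2 difference went from -2.27 to -0.31. On the 4 G-Surgery arrays it was above background at 1.80 to 2.32.

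Of the other interferon-stimulated genes, Pnpt1, a mitochondrial RNA exonuclease, was above background on 4 of 4 FLT-Sham arrays, at -0.85, -1.05, -1.64 and -2.23. On G-Sham it was above background on 0 of 4, at -5.12 to -2.83, so FLT-Sham was at least 2.96-fold higher (log2 difference 2.39, adjusted p = 0.404 from limma). The call was kept with each of the 8 arrays left out and lost with normexp and loess, where the difference was 0.017. Pnpt1 entered this fit through the FLT-Sham arrays alone, so that the kept calls are no independent support. Against FLT-Surgery, where it was above background on 0 of 3 arrays, the bound was at least 2.62-fold higher in FLT-Sham, a call kept in 4 of 7 fits with an array left out and lost with a second loess (-1.32), with normexp and loess (0.20) and with the slide as a block (-2.34). Xaf1, a partner of the caspase inhibitor XIAP, was above background on 4 G-Surgery arrays, at -0.05, -1.61, -1.52 and -1.90. In G-Sham 0 of 4 were above background, and G-Surgery was at least 3.75-fold higher (log2 difference 2.51, adjusted p = 0.230 from limma). Xaf1 entered this fit through the G-Surgery arrays alone, and its call was also kept with each of the 8 arrays left out. It was lost with the slide as a block, at 2.23, and with normexp and loess, at 0.35.

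Of the genes that respond mainly to interferon gamma, 18 of 20 had log2 differences above 0 in FLT-Sham against G-Sham and 15 of 16 below 0 in FLT-Surgery against G-Surgery, compared with 61.1% and 62.2% of all probes in those directions. The list medians were 0.62 and -0.30 beside 0.24 and -0.20 for all probes, which a second loess turned to -0.13 and 0.29. The member of this list past the cut-off was Gbp4, a guanylate-binding protein of a family with close copies. It was above background on 0 of 3 FLT-Surgery arrays, at -2.34, -3.40 and -3.63. The bound was at least 3.30-fold higher in G-Surgery (adjusted p = 0.218 from limma) and at least 4.95-fold higher in FLT-Sham (adjusted p = 0.144 from limma), with 3 of 4 arrays above background in each. With an array left out the first call was kept in 4 of 7 fits and the second in 1 of 7. With normexp and loess the log2 differences, -2.95 and -3.95 in the deposited ratios, were -0.21 and -0.74.

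In the interaction the 5 genes past the cut-off had negative estimates, as had 1082 of the 1160 probes past it. Besides Pnpt1 (-3.76) and Xaf1 (-3.41), these were Ptpn2 (-3.59), a protein tyrosine phosphatase, Samhd1 (-1.65), which breaks down the nucleotides viruses need, and Ifngr1 (-2.80), a chain of the interferon gamma receptor. Their adjusted p values were 0.167 to 0.179 from limma. With 1 of the 15 arrays left out the calls were kept in 15 fits for Pnpt1, 13 for Ptpn2, 10 for Samhd1, 9 for Xaf1 and 5 for Ifngr1. All 5 calls were lost with the replicate number as a block and with normexp and loess. With the block the estimates stayed large, at -4.83 for Pnpt1, -4.16 for Ptpn2, -4.52 for Xaf1, -2.22 for Samhd1 and -2.80 for Ifngr1. With normexp and loess they were 0.085 for Pnpt1, 0.15 for Ptpn2, 0.044 for Xaf1, -0.51 for Samhd1 and -0.77 for Ifngr1. Pnpt1 was above background on 0 of 4 G-Sham and 0 of 3 FLT-Surgery arrays and Xaf1 on 0 of 4 and 1 of 3, so that the sizes of these estimates rest in part on spots without measured signal. Ptpn2 was -5.26 and -5.28 on FLT-Surgery replicates 3 and 5 and -1.83 on replicate 1, the array of this group with the smallest scaling factor for Cy5.

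**Figure D5:**
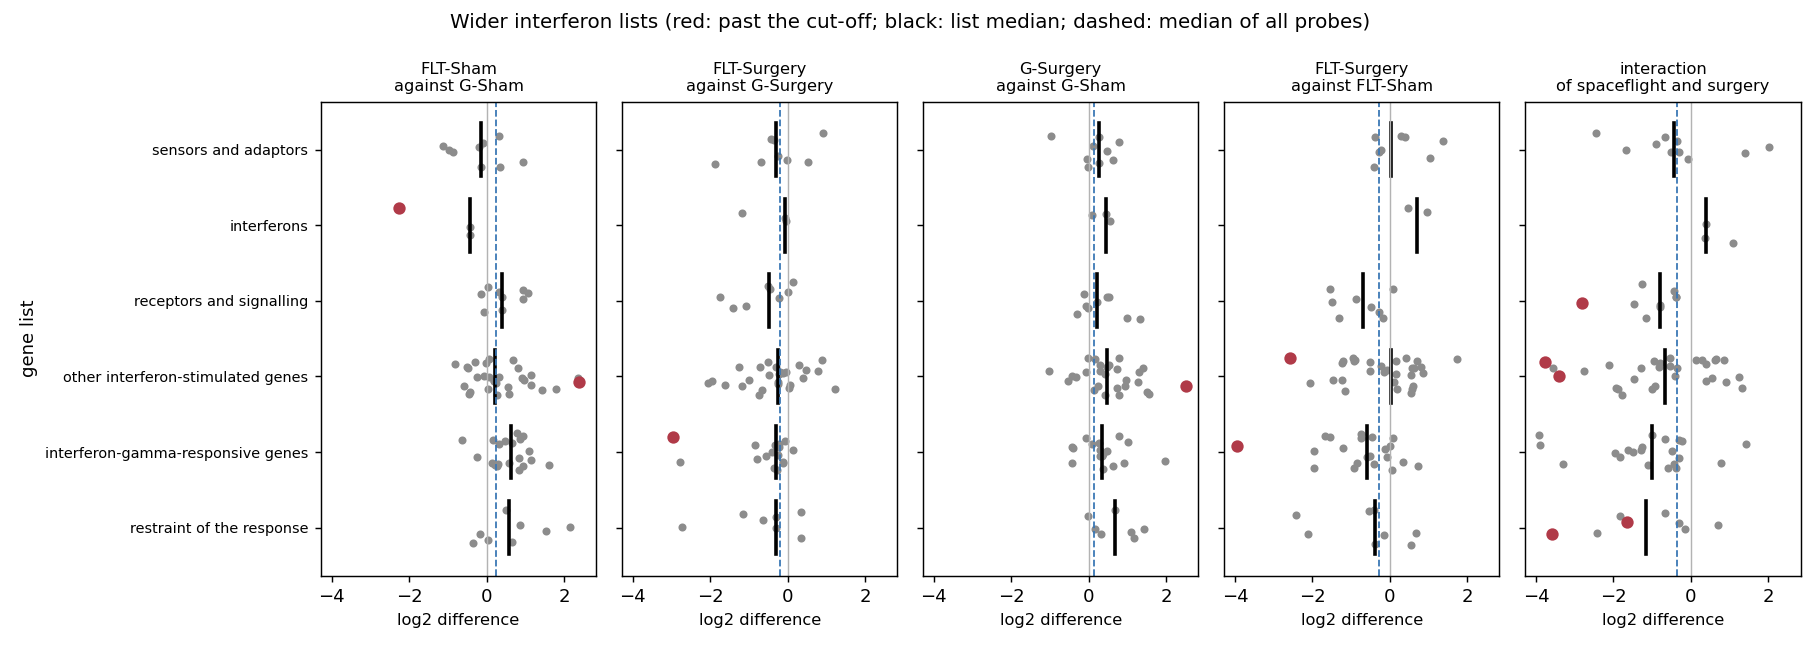
Log2 differences of the tested genes of 6 interferon lists (rows) in the 4 comparisons and the interaction (panels), 1 point per gene at its brightest probe, red where it passed the cut-off, with the list median in black and the median of all probes dashed. The red points number 2, 1, 1, 2 and 5 from left to right, and the list of genes that respond to interferon gamma has its median at 0.62 in the first panel and -0.30 in the second.

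The genes most like the members over the 15 arrays were sought by Pearson's r to the mean of the standardized log2 ratios of the 6 members above background on at least 3 arrays. Of 6391 other genes above background on at least 12 arrays, the 10 with the highest r were Trpv2 (0.885), Cyth4, Ncf4, Hcls1, Cerk, Decr2, Trim25, Psmb10, Sirpa and Klf6 (0.848). The points share the arrays' depth and the mix of cells, and r is given as a description. The mean of the members was highest on G-Surgery replicate 1 (1.05) and FLT-Surgery replicate 1 (0.85), and lowest on G-Sham replicate 1 (-0.81).

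Markers of other cell types that the tissue could hold are given by group, with no test between groups. The summed Cy5 signal of 9 neutrophil markers, in units of 1000, was 148 to 395 in FLT-Sham, 80.8 to 206 in G-Sham, 54.2 to 142 in G-Surgery and 15.8 to 110 in FLT-Surgery, and that of 7 erythroid markers was 58.6 to 138, 32.6 to 45.3, 11.8 to 27.7 and 22.5 to 47.2 in the same order. That of 8 monocyte and macrophage markers was 195 to 743, 272 to 600, 231 to 409 and 494 to 791, whereas the mean log2 ratio of the same genes was highest in G-Surgery, at 0.20 to 1.15, and -0.71 to 0.83 in FLT-Surgery. For the erythroid genes the mean log2 ratio was 1.91 to 4.68 in G-Surgery and 1.93 to 4.21 in FLT-Surgery, so that sums and ratios did not rank the Surgery groups alike. Osteoblast and osteocyte markers summed to 281 to 467, 162 to 384, 251 to 548 and 187 to 312. In the same order, the signal was 27.7 to 66.0, 35.8 to 67.4, 31.3 to 47.5 and 44.0 to 53.1 for T and NK cells, 1.71 to 2.71, 0.84 to 2.21, 0.89 to 2.23 and 0.82 to 1.01 for B cells, and 13.7 to 14.7, 5.22 to 15.6, 12 to 25.2 and 17.0 to 57.8 for endothelial cells. Defining markers at background on all arrays were Klf1 among erythroid genes, Igll1 among B cell genes, Cd3g and Klrb1c among T and NK cell genes, Tek among endothelial genes, and Klk1 and Spib among the 5 of plasmacytoid dendritic cells, the main producers of interferon alpha. The sum of the latter list, 353 to 560, 107 to 273, 174 to 243 and 247 to 401, includes Cox6a2, which muscle expresses too. For endothelial markers above background on at least 3 arrays, the group median of the mean log2 ratio was 2.72, 1.16, 2.34 and 1.39 in the same order. For plasmacytoid dendritic cell markers it was 2.99, 3.04, 2.81 and 1.96. In both lists sums and ratios did not rank the groups alike. The endothelial sum of 57.8 was that of FLT-Surgery replicate 5. The part of these cell types in the members' values was not tested.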

How the data were processed

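RNA of 15 mice was hybridised on 2-colour Agilent mouse arrays, 1 mouse per array. For every array the authors deposited scanner output (Feature Extraction 12.0.3.1 per the file headers) that holds a background-subtracted and dye-normalized intensity for each dye, and their log10 ratio. The file headers record a linear and a lowess dye normalization. The deposited series table holds the same log10 ratio to within 0.005.

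The deposited log10 ratio was converted to log2 with no further normalization, outlier spots were set to missing, and spots of a probe were averaged. Of 55681 probes, 28020 were named through their accession in the RefSeq gene table of GRCm38.p6. The number of arrays limits the precision. Where at least 3 of the arrays compared had Cy5 well above background, a probe entered the fit of lmFit and eBayes (limma 3.58.1, R 4.3.3), which used the arrays of the groups compared. Benjamini-Hochberg adjustment ran over all such probes, and p-values measure only the spread between these samples. Where 1 value stands for a gene it is that of its brightest probe. Lower bounds of folds came from Cy5 median intensity values after background correction, loess and quantile normalization across channels. For normexp, with an offset of 50, the median spot signal was used because mean signals are not analysed here.

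The members and lists were chosen with earlier results of these data known. Of the 6 interferon lists the genes past the cut-off are named, and 9 marker lists are given by sums. On simulated data, 50 probes in each comparison were given a true log2 difference of 2. Of these 50, the share past the cut-off was 58% in FLT-Sham against G-Sham (19726 probes run) and 66% in FLT-Surgery against G-Surgery (16506). It was 78% in G-Surgery against G-Sham (17656) and 58% in FLT-Surgery against FLT-Sham (19099). Alternatives were another normalization, filter, channel or source, outlier spots kept, all arrays in 1 fit, slide or replicate as a block, and an array left out. After the values were seen, log ratios of exactly 0 were set to missing as a further alternative, and arrays were left out of the count of probes above background.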

Additional observations from a re-analysis of the deposited data

Results flagged for a closer look

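Dixon's test at 95% was applied to each member probe in each group of 4 arrays, and an extreme array was found in 2 of 30 cases, where chance gives about 1.5. One was Rsad2 in FLT-Sham, at -3.49 on replicate 8 against 0.18 to 0.57 on the rest of the group (log2 ratios). The other was Ifit2 in G-Sham, at -1.27 on replicate 5 against -4.28 to -3.80. The Ifit2 spot was not above background there, with a median Cy5 signal of 36 and a local background of 34.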

How the results depend on the processing

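With the settings other than leaving out an array, 276 of 300 log2 differences of single members kept their direction and their side of the cut-off, 23 turned and 1 passed the cut-off. Some of these settings could hardly move a member. Exact zeros set to missing met 0 member values equal to 0, and the series table holds the same log10 ratio to within 0.005. As 0 members passed in the main fits, a kept side means that a member again did not pass. With an array left out, 234 of 249 did so, 8 turned and 7 passed. The cause of each change was not tested.

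Under a second loess, Usp18 (0.10) and Ifit3 (0.44) turned in FLT-Surgery against G-Surgery, Ifit3 (-0.070) in G-Surgery against G-Sham, Ifit3 (0.34), Irf7 (0.52) and Oasl2 (0.70) in FLT-Surgery against FLT-Sham, and Isg15 (0.054), Rsad2 (0.83) and Ifit3 (0.41) in the interaction. This loess also moved the median of all probes from 0.24 to -0.13, from -0.20 to 0.29, from 0.14 to -0.08, from -0.28 to 0.35 and from -0.37 to 0.49 in the order of the report. With normexp and loess, Ifit3 (-0.0013) and Oasl2 (-0.044) turned in FLT-Sham against G-Sham, Usp18 (0.13) and Ifit3 (0.13) in FLT-Surgery against G-Surgery, Ifit3 (-0.046) in G-Surgery against G-Sham, Ifit3 (0.081), Irf7 (0.12) and Oasl2 (0.40) in FLT-Surgery against FLT-Sham, and Rsad2 (0.0081) and Ifit3 (0.13) in the interaction. With Cy5 alone, Oasl2 (0.22) turned in FLT-Surgery against FLT-Sham and Isg15 (0.11) in the interaction, and 1 member passed the cut-off in G-Surgery against G-Sham. With the slide as a block, Irf7 (0.80) turned in FLT-Sham against G-Sham and Oasl2 (0.19) in FLT-Surgery against FLT-Sham.

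With an array left out, the members past the cut-off numbered 0 to 1 in each of the 4 comparisons and 0 in the interaction. Irf7 ran from -0.78 to 0.71 in FLT-Sham against G-Sham, Ifit3 from -1.33 to 0.058 in FLT-Surgery against G-Surgery and from -0.11 to 0.66 in G-Surgery against G-Sham, Oasl2 from -0.83 to 0.81 in FLT-Surgery against FLT-Sham, and Rsad2 from -1.86 to 0.12 in the interaction.

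Same-numbered arrays did not deviate together (correlations of -0.29 to 0.20 between the Surgery groups and -0.14 to 0.28 between the ground groups), so the numbers were not taken as pairs. With the replicate block, 0 members passed in the 3 fits where groups share at least 2 numbers (FLT-Sham shares 1 with G-Sham). The calls over all probes went from 519 to 215 in FLT-Surgery against G-Surgery, from 458 to 389 in G-Surgery against G-Sham and from 1160 to 399 in the interaction. Members near the background of Cy5 are limited by that signal.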
